A study of Mus musculus with 6 samples.

Results

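The genes described here encode AP-1 subunits and other immediate early factors: Fos, Fosb, Fosl1 and Fosl2 of the Fos family, Jun, Junb and Jund of the Jun family, and Atf3, Egr1 and Ier2. They were taken by symbol, through GENCODE mouse release 21, from the 55401 gene rows of the expression tables. All 10 were found, each as 1 row. The RNA came from cells isolated from the lamina propria of the colon, the tissue layer beneath the gut epithelium in which most intestinal immune cells reside, and it was sequenced in bulk. In 3 libraries the mice had received atorvastatin, an inhibitor of cholesterol synthesis, at 20 mg/kg by gavage on alternate days. In the other 3 they had received the vehicle, 2% Tween 80, by the same route. All mice were male, 5 to 6 weeks old and Apc Min/+, that is, heterozygous for a truncating allele of Apc, which encodes a brake on Wnt signalling. Mice without this mutation were not analysed here, so every comparison is of treatment within the mutant background. Whether each library stands for its own animal or for a pool is not stated in the labels, so a p-value here speaks only of variation among these libraries, possibly technical in origin. The study's title places the comparison within the prevention of colorectal cancer by statins.

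AP-1 is a pair of basic leucine zipper (bZIP) proteins, usually a Fos protein with a Jun protein, that binds DNA and turns on genes of proliferation, migration and inflammation. Most of these genes are immediate early genes: they are almost silent at rest and are transcribed within minutes of a growth factor, cytokine or stress signal, through kinases of the MAPK pathways acting on factors already present. Enzymes and warmth used to free cells from tissue set off the same response, and so levels in isolated cells can reflect handling as well as the state of the tissue. The isolation of cells preceded the extraction of RNA in all 6 libraries.

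The labelled cell type was checked on defining markers. Ptprc, which encodes the leukocyte antigen CD45, had 13.9 to 19.5 FPKM with atorvastatin and 17.7 to 18.6 FPKM with vehicle, where FPKM is the authors' normalised fragment count, scaled for gene length and for mapped fragments per library. Genes of plasma cells, B cells, fibroblasts and smooth muscle were abundant. Epcam, an epithelial surface protein, had 8.27 to 13.6 FPKM with atorvastatin and 11.0 to 13.1 FPKM with vehicle, while of the 9 epithelial markers Krt20, Cdx1 and Cdx2 were below 1 FPKM in every library. Krt8, Krt18 and Muc2, of the same list, were highest in library 2 of each group. They had 11.5, 8.6 and 4.35 FPKM in atorvastatin library 2, and 11.9, 7.76 and 5.89 FPKM in vehicle library 2. Immunoglobulin genes took 27.9% to 47.9% of the summed FPKM with atorvastatin and 30.4% to 38.4% with vehicle, highest in atorvastatin library 2. Vehicle library 3 stood apart from the others, with a mean correlation of 0.944 to the other libraries across genes, against 0.957 to 0.961 for each of the others. Protein-coding genes with over 6000 nt of exons had a median of 4.23 FPKM in it, below the 4.66 to 5.16 FPKM of the other libraries, and those with under 1500 nt had 10.1 FPKM, above their 8.12 to 9.18 FPKM.

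The promoters of the members were searched for motifs of the factors that control this family. RefSeq promoters on build GRCm38.p6, from 250 bases before to 50 bases after the start, were matched for 7 members, Fos, Fosb, Fosl2, Jun, Junb, Jund and Atf3; Fosl1, Egr1 and Ier2 had no entry. The letters TGACG, the core of the cAMP response element bound by CREB and ATF proteins, were searched on both strands and lay in 4 of the 7, in Fos, Fosb, Junb and Atf3. They lay in 20.8% of all 32851 promoters in the table. The whole element TGACGTCA, which contains that core, was in none of the 7 and in 1.79% of all. TGACATCA, the variant site through which Jun is known to control its own gene, was in Jun alone of the 7 and in 3.62% of all. TGANTCA, the AP-1 site with any base allowed in the middle, was in none of them and in 7.81% of all. The CArG box, where serum response factor binds, was in none and in 1.63% of all. Sites outside the window of 250 bases before to 50 after the start, and the promoters of Fosl1, Egr1 and Ier2, were not searched. Absence here therefore does not mean that a gene lacks the site. The Egr1 motif GCGNGGGCG was in Fosb and Fosl2 and in 5.55% of all. TATAAA, searched on the given strand, was in Fos and Junb and in 8.32% of all. A match is a description of letters and not a sign of binding. The 150 bases before the start are shown for the 5 members with TGACG or TGACATCA, 5′ to 3′, with those letters, and TATAAA where it lies in them, in capitals.
Fos (chr12:85473740-85473889, plus strand): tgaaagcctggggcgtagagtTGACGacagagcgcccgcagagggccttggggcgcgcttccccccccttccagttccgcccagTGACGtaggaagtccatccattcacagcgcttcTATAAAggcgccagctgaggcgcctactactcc
Fosb (chr7:19310046-19310195, minus strand): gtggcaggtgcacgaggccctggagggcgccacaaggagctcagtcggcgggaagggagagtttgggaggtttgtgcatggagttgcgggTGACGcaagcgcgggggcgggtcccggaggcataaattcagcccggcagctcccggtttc
Jun (chr4:95052223-95052372, minus strand): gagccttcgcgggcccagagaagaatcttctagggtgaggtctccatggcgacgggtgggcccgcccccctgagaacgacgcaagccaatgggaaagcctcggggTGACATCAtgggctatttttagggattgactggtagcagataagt
Junb (chr8:84978749-84978898, minus strand): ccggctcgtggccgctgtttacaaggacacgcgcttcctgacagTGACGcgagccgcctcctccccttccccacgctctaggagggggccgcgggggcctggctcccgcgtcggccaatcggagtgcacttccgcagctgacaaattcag
Atf3 (chr1:191183334-191183483, minus strand): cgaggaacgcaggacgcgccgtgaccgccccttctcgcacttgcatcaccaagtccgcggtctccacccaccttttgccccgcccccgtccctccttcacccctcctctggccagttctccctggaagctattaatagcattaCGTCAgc
Counted back from the start, with -1 the last base shown, TGACG began at -129 and -66 in Fos, at -60 in Fosb and at -106 in Junb, and on the opposite strand, printed as CGTCA, at -7 in Atf3. TGACATCA began at -45 in Jun. TATAAA began at -33 in Fos, and in Junb at the first base from the start onward, outside the bases shown. The RefSeq start of Atf3 lies 34706 nt inside the gene as the files place it, and that of Fosl2 671 nt inside. That of Jund lies 1210 nt before the gene, whereas for Fos and Jun both starts coincide. Which start these cells use is not known, so the bases searched in Atf3, Fosl2 and Jund may not be those beside it. The Junb start lies 30 nt from the files' gene start and that of Fosb 6 nt.

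With atorvastatin, the mean level of 9 of the 10 genes was between 1.23 and 1.47 times that with vehicle. Jund was level, at 1.01 times. None passed the test. limma, run on log2(FPKM + 1) over 13590 genes, called 0 members and 0 genes in all at a false discovery rate of 0.05, or 0%, while 974 genes had an unadjusted p under 0.05. Adjusted p-values of the members lay between 0.692 and 0.992. All 10 differences were positive, against 47% of the genes tested. Their median was 0.37 on the log2 scale, and that of all genes tested was -0.02. Fosl2 and Ier2, 2 of the 10, had an unadjusted limma p under 0.05 with a positive difference, as had 3.13% of the genes tested. In 3 of the 10, Fosl2, Jun and Ier2, every atorvastatin library was above every vehicle library, as in 5.53% of the genes tested. Without atorvastatin library 1 or 3 or vehicle library 2 the count of 2 became 0, without vehicle library 1 it was 1, and without atorvastatin library 2 or vehicle library 3 it was 4. Of all genes tested, in either direction, 992 were at that level without atorvastatin library 2 and 1125 without vehicle library 3. The median was 0.25 without atorvastatin library 3. In bulk RNA, more cells of an expressing type and more RNA per cell cannot be told apart.

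**Figure D1:**
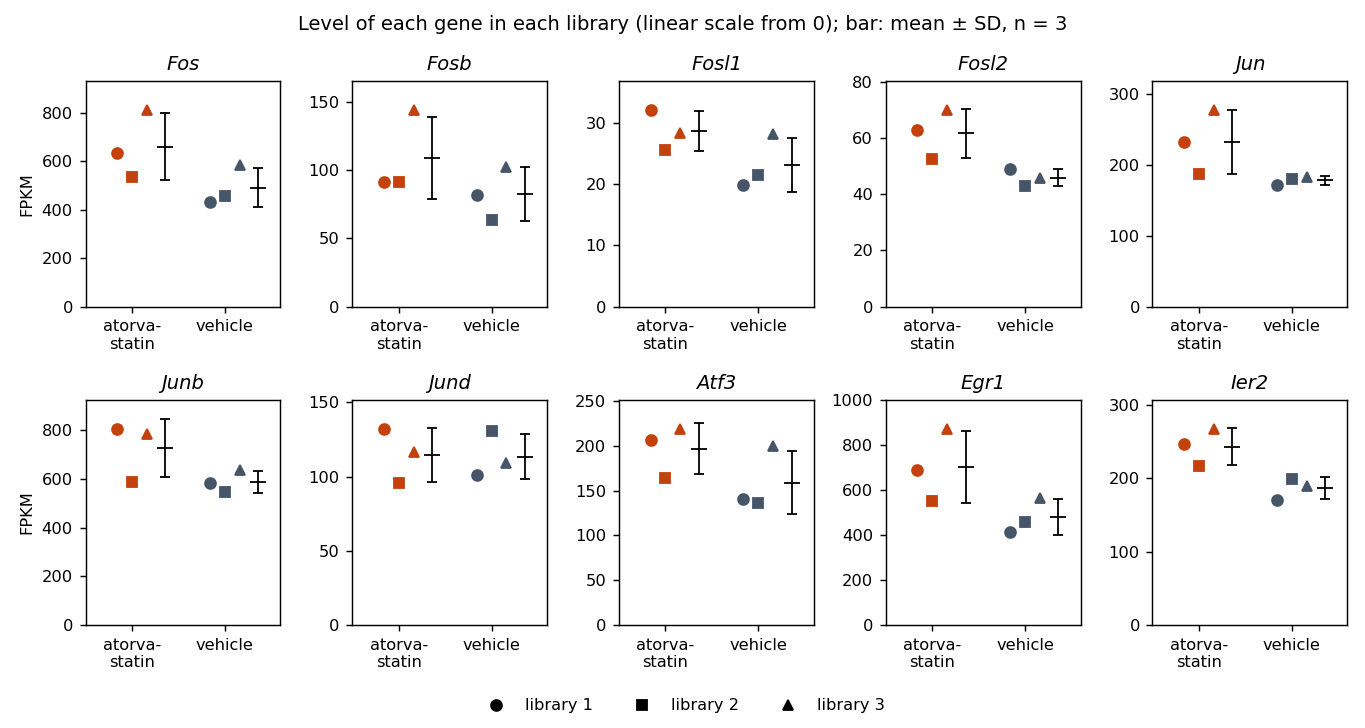
FPKM of each gene (linear axis from 0) in the 3 atorvastatin libraries, left, and the 3 vehicle libraries, right, with symbols for the library number and a bar for the mean ± SD (n = 3). The atorvastatin points lie wholly above the vehicle points for Fosl2, Jun and Ier2, and for Jund both groups cover much the same range.

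Of the Fos family, which binds DNA mainly with a Jun partner, Fos was the most abundant. It had 632, 536 and 809 FPKM in the atorvastatin libraries, against 432, 457 and 583 FPKM in the vehicle libraries. Atorvastatin library 3 was highest and vehicle library 3 reached above atorvastatin library 2, so the groups overlapped. The difference was 0.42 (SE 0.23, 95% interval -0.14 to 0.97, n = 3 per group, limma adjusted p = 0.710), and it was 0.26 without atorvastatin library 3. Fosb, which encodes the full-length protein and the stable truncated form ΔFosB, had 91.3, 91.6 and 144 FPKM with atorvastatin, against 81.9, 63.3 and 103 FPKM with vehicle. Its high value in atorvastatin library 3 stood clear of the other 5, and its spread was the widest of the 10, with a standard deviation of 27.9% of the mean with atorvastatin and 23.9% with vehicle. The difference was 0.39 (SE 0.25, limma adjusted p = 0.735), and leaving out atorvastatin library 3 gave 0.17, and leaving out vehicle library 2 gave 0.21.

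Fosl1 and Fosl2 encode Fra-1 and Fra-2, which lack the strong activation domain of Fos and are induced later and held longer. Fosl2 had 62.8, 52.5 and 69.9 FPKM with atorvastatin, against 48.9, 42.9 and 45.8 FPKM with vehicle. No vehicle library reached the atorvastatin range, the SD over the mean was 6.55% with vehicle, and the difference of 0.41 (SE 0.14, 95% interval 0.07 to 0.76) had the smallest p of the 10 genes, unadjusted 0.0251 and adjusted 0.692 in limma. Fosl1, the least abundant member, had 32.0, 25.6 and 28.3 FPKM with atorvastatin, against 19.9, 21.4 and 28.2 FPKM with vehicle. Vehicle library 3 lay within the atorvastatin range and the other vehicle libraries below it. Its difference was 0.30 (SE 0.16, limma adjusted p = 0.699).

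Jun proteins can pair with each other as well as with Fos proteins. Jun, the strongest activator of the family, had 231, 187 and 276 FPKM with atorvastatin, against 171, 180 and 183 FPKM with vehicle. The vehicle libraries lay close together, with a standard deviation of 3.38% of the mean, and all were below the lowest atorvastatin library, which exceeded the highest of them by little. The difference was 0.36 (SE 0.18, 95% interval -0.07 to 0.79, limma adjusted p = 0.696), and it was 0.22 without atorvastatin library 3. Junb, a weaker activator that can dampen Jun, had 805, 589 and 783 FPKM with atorvastatin, against 585, 545 and 636 FPKM with vehicle. Atorvastatin libraries 1 and 3 were above every vehicle library, and library 2 was among them. Its difference was 0.29 (SE 0.21, limma adjusted p = 0.746).

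Jund, which unlike its relatives is made steadily in resting cells, had 132, 95.7 and 116 FPKM with atorvastatin, against 101, 130 and 109 FPKM with vehicle. The lowest and the highest library of all 6 were both atorvastatin libraries, and the difference was 0.01 (SE 0.18, 95% interval -0.41 to 0.43, limma adjusted p = 0.992). That interval includes the differences of all the other members but Egr1. The sign of the Jund difference turned when atorvastatin library 1 or 3 or vehicle library 1 or 3 was left out, with -0.10 as the lowest value.

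Atf3 encodes a stress-induced bZIP protein that pairs with Jun proteins and often represses. It had 206, 164 and 219 FPKM with atorvastatin, against 141, 137 and 199.5 FPKM with vehicle. Vehicle library 3 was again the vehicle library that reached into the atorvastatin range, and the difference was 0.32 (SE 0.21, limma adjusted p = 0.735), or 0.49 without that library. Egr1 encodes a zinc finger factor outside AP-1 that is switched on by the same serum response factor and MAPK route as Fos. It had 689, 552 and 873 FPKM with atorvastatin, against 412, 460 and 567 FPKM with vehicle. This was the largest difference of the 10, 0.54 (SE 0.24, 95% interval -0.03 to 1.12, limma adjusted p = 0.696), and the groups overlapped only through vehicle library 3 and atorvastatin library 2. Ier2, a short intronless immediate early gene whose protein acts in the nucleus, had 247, 217 and 268 FPKM with atorvastatin, against 171, 199.8 and 190.1 FPKM with vehicle. The groups did not overlap, and the difference was 0.38 (SE 0.16, 95% interval 0.01 to 0.75, limma unadjusted p = 0.0469 and adjusted p = 0.692).

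**Figure D2:**
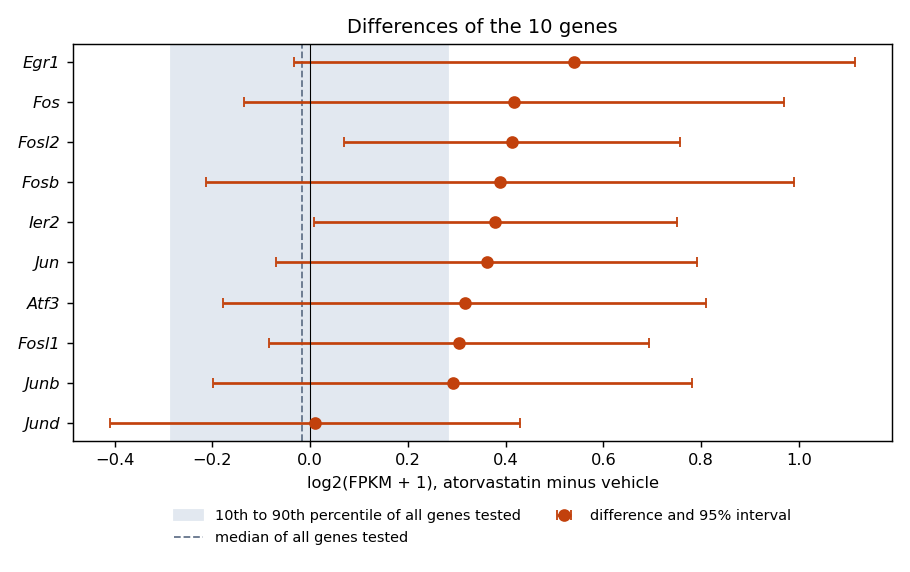
Difference of each gene, atorvastatin minus vehicle, on the log2(FPKM + 1) scale, with its 95% interval from limma, over the range from the 10th to the 90th percentile of all genes tested (-0.28 to 0.28, grey). All points but Jund lie to the right of the grey band, and the intervals of Fosl2 and Ier2 alone leave out 0.

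All 10 genes were strongly expressed. Over the 6 libraries Junb averaged 657 FPKM, Egr1 592 and Fos 575, and in every library these ranked within the 111 most abundant of all 55401 genes. Ier2 averaged 215 FPKM, Jun 205, Atf3 178, Jund 114, Fosb 95.8, Fosl2 53.8 and Fosl1 25.9. Fos lay above Ier2, Atf3 above Jund, Fosb above Fosl2 and Fosl2 above Fosl1 in 6 of 6 libraries. Neighbours that changed places were Junb and Egr1 and likewise Jun and Atf3 and Jund and Fosb, each pair in the stated order in 5 of 6 libraries, and Egr1 and Fos and likewise Ier2 and Jun, in 4 of 6.

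The libraries had a shared order. Atorvastatin library 3 was the highest library for 7 genes and atorvastatin library 1 for the other 3, Fosl1, Junb and Jund. Within the atorvastatin group library 2 was lowest for 9 of the 10, all but Fosb. Within the vehicle group library 3 was highest for 7. On the log2(FPKM + 1) scale, the mean of the 10 genes, each set to 0 at its own average, was 0.21, -0.07 and 0.37 in the atorvastatin libraries, against -0.27, -0.24 and -0.01 in the vehicle libraries. Fosb and Jund kept least to this pattern, with a root mean square distance from it of 0.21 and 0.24, while Jun was closest at 0.07 and the other 7 were between 0.08 and 0.13.

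**Figure D3:**
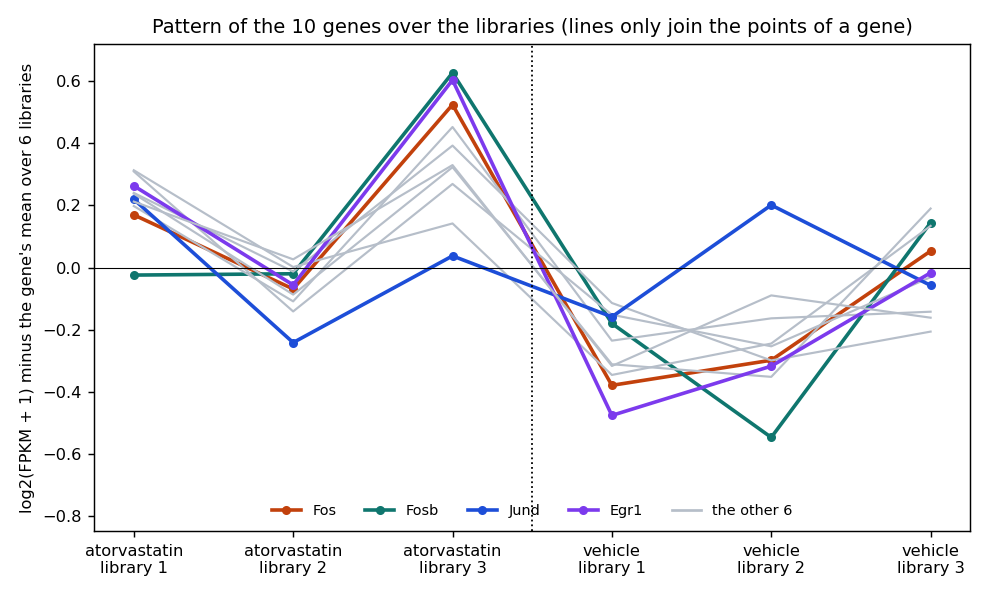
Level of each gene in each library on the log2(FPKM + 1) scale, minus its mean over the 6 libraries, with atorvastatin libraries to the left of the dotted line. Fos and Egr1 run together, at 0.52 and 0.60 in atorvastatin library 3 and at -0.38 and -0.48 in vehicle library 1, whereas Jund is lowest in atorvastatin library 2.

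Ratios between members within a library do not depend on a single scaling factor per library. They do depend on corrections that differ between genes, such as removal of the trend on gene length. That removal moved the difference of Jund from 0.01 to 0.12, of Jun from 0.36 to 0.41 and of Egr1 from 0.54 to 0.55. Jun stood at 1.75, 1.95 and 2.38 times Jund with atorvastatin, against 1.69, 1.38 and 1.68 times with vehicle, so the groups did not overlap. Egr1 stood at 5.21, 5.77 and 7.50 times Jund with atorvastatin, against 4.07, 3.53 and 5.21 times with vehicle, where the lowest atorvastatin value exceeds the highest vehicle value only in the fourth digit. The share of Jund in the summed FPKM of the Jun family was 10.7% ± 0.739 (SD, n = 3) with atorvastatin and 12.9% ± 2.00 (SD, n = 3) with vehicle. For these 3 of the 6 ratios computed the two-sided exact permutation test gave p = 0.1, the smallest that 3 against 3 libraries allow, and 0.2 after Benjamini-Hochberg adjustment. Fos over Jund was 5.78 ± 1.10 with atorvastatin and 4.38 ± 0.934 with vehicle (SD, n = 3 each, exact p = 0.2). The Fos family sum over the Jun family sum was 0.801 ± 0.0972 with atorvastatin and 0.728 ± 0.0798 with vehicle (exact p = 0.3). Fos made up 76.7% ± 0.689 of its family's sum with atorvastatin and 76.3% ± 2.05 with vehicle (exact p = 0.8).

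The values of the members also depend on what fills each library. Together the 10 genes took 0.829%, 0.550% and 1.01% of the summed FPKM in the atorvastatin libraries, against 0.531%, 0.542% and 0.627% in the vehicle libraries. Leaving immunoglobulin genes out of the sum, the shares were 1.19%, 1.06% and 1.40% with atorvastatin, against 0.825%, 0.880% and 0.901% with vehicle. The groups overlapped on the first measure, through atorvastatin library 2, and not on the second. When values were rescaled to equal sums without immunoglobulin genes, the groups did not overlap in 8 of the 10 genes, all but Fosb and Jund, with the atorvastatin libraries higher, against 11.3% of genes tested. In that scaling 8 of the 10 had an unadjusted limma p under 0.05 with a positive difference, against 6.41% of genes tested, the smallest adjusted p of a member was 0.561, and 0 members and 0 genes were called. That scaling moved the median difference of all genes tested to 0.06 and that of the members to 0.46. The sum it equalises, relative to the mean of the 6 libraries, was lowest in atorvastatin library 2 (0.910) and highest in vehicle library 3 (1.12). Mitochondrial genes, which stay in that sum, took 6.98% of the summed FPKM in vehicle library 3, against 3.54% to 4.96% in the other libraries. How far the scaling of these libraries made the groups separate was not tested. With median-of-ratios scaling, which sets libraries by their typical gene, the groups did not overlap in 4 of the 10 genes, against 7.42% of genes tested. With this scaling 3 members had an unadjusted limma p under 0.05, as had 1064 of 13552 genes tested, in either direction. Its factors for atorvastatin library 2 and vehicle library 3 were 0.960 and 0.999, unlike those of the sum without immunoglobulin genes.

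**Figure D4:**
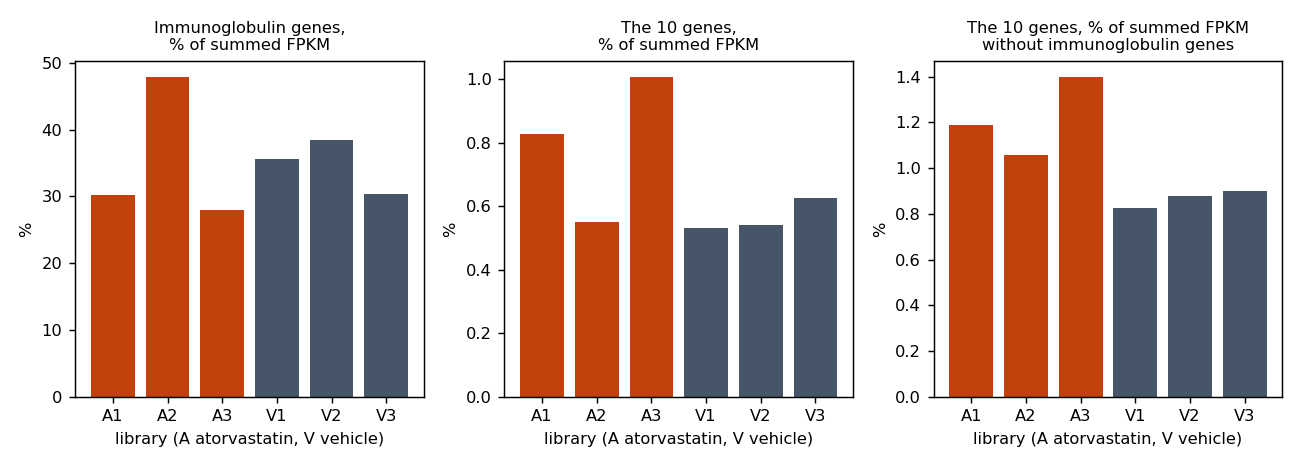
Share of the summed FPKM of each library taken by immunoglobulin genes, left, by the 10 genes, middle, and by the 10 genes once immunoglobulin genes are left out, right (bars from 0, atorvastatin libraries A1 to A3, vehicle libraries V1 to V3). Atorvastatin library 2, with 47.9% immunoglobulin, falls among the vehicle libraries in the middle panel and above them all, at 1.06%, in the right panel.

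Heat shock genes, which the freeing of cells from tissue also induces, were examined beside the members. The summed FPKM of 8 such genes was 6229, 5046 and 6741 with atorvastatin, against 4912, 4627 and 4599 with vehicle, with library 2 again the lowest of the atorvastatin group. Within the vehicle group the order was the reverse of that of the members, whose summed FPKM there was 2163, 2236 and 2644. Of the 8, 6 had a positive difference and 2 a negative one, with a median of 0.24, and limma called 0 of them, with 0 at an unadjusted p under 0.05. In 2 of the 8, Hspa1b and Hspa1a, the groups did not overlap, with the atorvastatin libraries higher, as in 5.53% of the genes tested. This pair made up most of the summed FPKM of the list in every library, and in each of the other genes the groups overlapped. Hspa1b and Hspa1a, inducible HSP70 chaperones with near-identical sequences that can share reads, had 2289 ± 339 and 2059 ± 308 FPKM with atorvastatin, against 1680 ± 183 and 1523 ± 120 FPKM with vehicle (SD, n = 3 each). Thus the order of libraries was shared within the atorvastatin group only, and its part in the differences of the members was not tested.

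Among 19 other immediate early genes, 16 had a positive difference and 3 a negative one, with a median of 0.19, and limma called 0, with 0 at an unadjusted p under 0.05. In 3 of the 19, Klf4, Arc and Nr4a1, the groups did not overlap, with the atorvastatin libraries higher, as in 5.53% of the genes tested. Zfp36, which encodes an RNA-binding protein that destabilises cytokine transcripts, had 459 ± 81.3 FPKM with atorvastatin and 379 ± 77.4 FPKM with vehicle (SD, n = 3 each). Gadd45b, a stress-induced gene whose protein acts on p38 and JNK signalling, had 379 ± 78.8 FPKM with atorvastatin and 315 ± 87.6 FPKM with vehicle. The zinc finger factor Klf4 had 71.1, 62.7 and 85.4 FPKM with atorvastatin, against 51.9, 56.0 and 61.8 FPKM with vehicle, a difference of 0.36 (SE 0.16, limma adjusted p = 0.696). Egr2, a relative of Egr1, varied within both groups: it had 35.7, 5.99 and 20.6 FPKM with atorvastatin, against 5.74, 10.7 and 30.4 FPKM with vehicle, and its difference of 0.39 had an SE of 0.74.

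Of 13 other bZIP factors able to pair with Fos or Jun proteins, 8 had a positive difference and 5 a negative one, with a median of 0.03, and limma called 0, with 0 at an unadjusted p under 0.05. Atf4, the effector of the integrated stress response, was the most abundant, with 154 ± 42.8 FPKM with atorvastatin and 198 ± 69.7 FPKM with vehicle (SD, n = 3 each). Mafk, a small Maf protein, had 73.7 ± 13.3 FPKM with atorvastatin and 58.9 ± 7.24 FPKM with vehicle. Batf2 had 2.09, 2.52 and 1.44 FPKM with atorvastatin, against 1.28, 1.63 and 0.71 FPKM with vehicle, and the groups overlapped. Atf7 had 6.90 to 7.42 FPKM with atorvastatin, and 7.20, 7.39 and 2.26 FPKM with vehicle, and its difference was 0.43 (SE 0.36); vehicle library 3 stood far below the other 5.

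Upstream of AP-1, 18 kinases and DNA-bound factors were examined: 12 had a positive difference and 6 a negative one, with a median of 0.10, and limma called 0. At an unadjusted p under 0.05 there were 2 of the 18, Map2k7 and Elk1, both higher with atorvastatin, against 3.13% of the genes tested. These 2 also had no overlap between groups, against 5.53% of the genes tested, and 2 others, Elk4 and Map2k4, had every atorvastatin library below every vehicle library, against 8.85% of the genes tested. Map2k7, the MKK7 kinase that activates JNK, which in turn phosphorylates Jun, had 4.69, 5.53 and 6.48 FPKM with atorvastatin, against 1.69, 1.47 and 1.13 FPKM with vehicle. The groups lay far apart, with a difference of 1.43 (SE 0.15), but limma's adjusted p over all genes was 0.291 (unadjusted 3.2e-05), the smallest adjusted value in the table. Elk1, an Ets factor that joins serum response factor at the Fos promoter when phosphorylated, had 5.08, 4.73 and 7.04 FPKM with atorvastatin, against 4.59, 3.62 and 3.91 FPKM with vehicle (difference 0.38, SE 0.16, limma adjusted p = 0.692). Elk4, an Ets relative of Elk1, had 15.1, 14.8 and 14.2 FPKM with atorvastatin, against 17.4, 16.9 and 16.5 FPKM with vehicle (difference -0.19, SE 0.10, limma adjusted p = 0.696). Map2k4, the MKK4 kinase that also activates JNK, differed by -0.07 (SE 0.10, limma adjusted p = 0.868). The most abundant of the list, Map2k1 and Mapk3, which encode MEK1 and ERK1, had differences of -0.05 (SE 0.16) and -0.02 (SE 0.12).

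Of 14 genes known as AP-1 targets, 13 passed the filter, and Mmp9 was below 1 FPKM in every library. There were 11 positive differences and 2 negative ones, with a median of 0.08, and limma called 0, with 0 at an unadjusted p under 0.05. Plau, the urokinase plasminogen activator, had 96.9, 55.7 and 74.8 FPKM with atorvastatin, against 47.3, 35.0 and 78.5 FPKM with vehicle (difference 0.54, SE 0.33), and Mmp13, a collagenase, had 15.9 ± 2.17 FPKM with atorvastatin and 11.9 ± 5.38 FPKM with vehicle (SD, n = 3 each). In both genes vehicle library 3 lay within the atorvastatin range. The inducible cyclooxygenase gene Ptgs2 had 133 ± 25.5 FPKM with atorvastatin and 106 ± 46.3 FPKM with vehicle, and the monocyte chemokine gene Ccl2 had 464 ± 138 FPKM with atorvastatin and 443 ± 179 FPKM with vehicle.

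**Figure D5:**
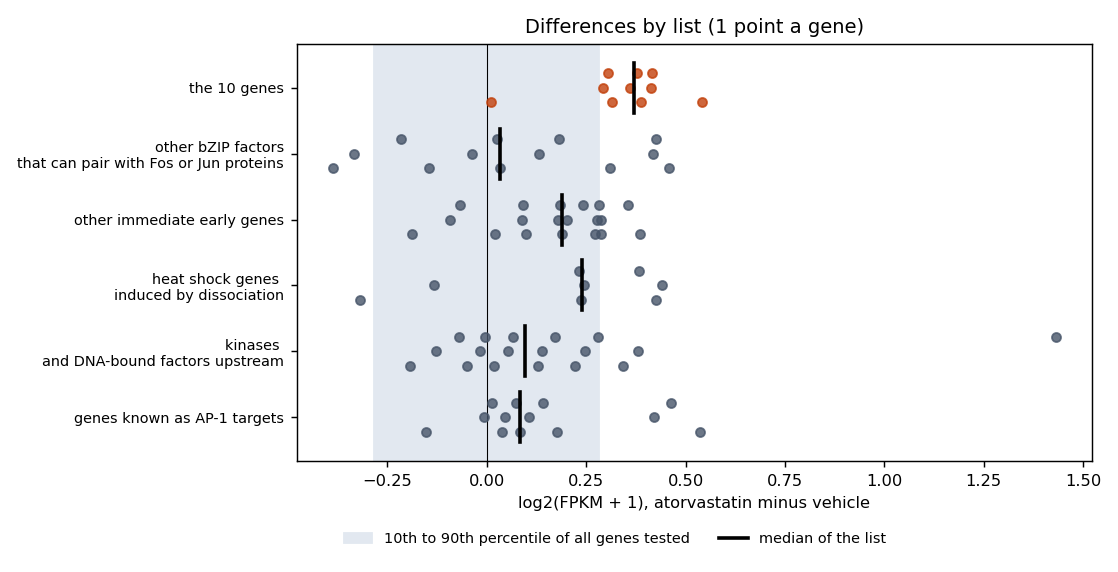
Difference of each gene, atorvastatin minus vehicle, on the log2(FPKM + 1) scale, for the 10 genes (top row) and the 5 lists of related genes, with the median of each as a black line and the 10th to 90th percentile of all genes tested in grey. The medians are 0.37 for the 10 genes, 0.24 for heat shock genes and 0.19 for other immediate early genes, and between 0.03 and 0.10 for the rest, where Map2k7 lies alone at 1.43.

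The genes whose pattern over the 6 libraries was nearest to the mean of the members, by root mean square distance on the centred log2(FPKM + 1) scale, were Egfr (0.04), Antxr1 (0.05), Klf4 (0.05), Col4a5 (0.05) and Gm43737 (0.05). A flat profile would lie 0.23 from it. Egfr, the receptor for epidermal growth factor, had 9.06, 7.65 and 10.1 FPKM with atorvastatin, against 6.53, 6.17 and 7.6 FPKM with vehicle. Nearest to Fos alone were Zfp61, Spry4, Fendrr, Tor1b and Ptpre, at 0.06 to 0.08, beside Egr1 at 0.07. Spry4, a feedback inhibitor of MAPK signalling, had 12.4, 9.01 and 13.9 FPKM with atorvastatin, against 7.46, 8.01 and 9.86 FPKM with vehicle. With 6 libraries and 13590 genes, close matches are many, and these are a description only.

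Markers of the cell types that lamina propria holds were summed per library. The 5 B cell markers summed to 246 to 261 FPKM with atorvastatin and to 311 to 418 FPKM with vehicle, and the 5 T cell markers to 58.8 to 72.7 FPKM with atorvastatin and to 75.6 to 85.7 FPKM with vehicle, without overlap in either list. Taken singly, 5 of 5 B cell markers and 1 of 5 T cell markers, Thy1, were lower with atorvastatin without overlap, against 8.85% of the genes tested, and 4 of the B cell markers had an unadjusted limma p under 0.05, against 4.04% of the genes tested. Thy1 and Cd2 made up most of the T cell sum. In Cd2 and in the T cell receptor genes Cd3d, Cd3e and Cd3g the groups overlapped, though all 5 T cell differences were negative. The summed ranges with atorvastatin and with vehicle overlapped for plasma cells (2117 to 4511 and 1627 to 3662 FPKM), macrophages (106 to 117 and 62.4 to 138 FPKM), neutrophils (6.04 to 10.04 and 8.67 to 16.02 FPKM) and mast cells (18.0 to 26.6 and 15.8 to 29.8 FPKM). They overlapped too for fibroblasts (852 to 1074 and 888 to 1154 FPKM), smooth muscle (591 to 793 and 461 to 838 FPKM), endothelium (216 to 284 and 249 to 266 FPKM) and epithelium (17.0 to 40.8 and 29.6 to 41.0 FPKM). Within these overlapping sums some single markers kept the groups apart. The neutrophil calprotectin genes S100a9 and S100a8 were lower in every atorvastatin library, S100a9 with 1.6, 2.75 and 1.2 FPKM with atorvastatin, against 5.21, 3.52 and 3.4 FPKM with vehicle. Retnlg, of the same list, varied within both groups, with 6.43, 2.31 and 3.57 FPKM with atorvastatin, against 0.80, 9.98 and 6.23 FPKM with vehicle. Myh11, a smooth muscle myosin gene, was higher, with 117, 104 and 106 FPKM with atorvastatin, against 84.5, 70.6 and 81.1 FPKM with vehicle. Lyve1, a marker of lymphatic endothelium, was lower, with 80.4, 70.7 and 84.3 FPKM with atorvastatin, against 95.9, 102 and 94.5 FPKM with vehicle. It was the exception in its list: 4 of the 5 endothelial markers had a positive difference, against 47% of the genes tested, and their median was 0.23 with Lyve1 included. Other lists with overlapping sums also leaned 1 way. All markers tested were positive for macrophages (7, median 0.23) and smooth muscle (5, median 0.15). All were negative for neutrophils (4, median -0.39), mast cells (4, median -0.11) and epithelium (5, median -0.35). Plasma cell and fibroblast markers were mixed. S100a9, S100a8, Myh11 and Lyve1 each had an unadjusted limma p under 0.05, and limma called none of them. The neutrophil marker Ly6g and the mast cell marker Fcer1a were listed at 0 in some libraries and below 1 FPKM in all. The part of these cell types in the differences of the members was not tested.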

How the data were processed

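RNA of 3 atorvastatin and 3 vehicle libraries was measured. The authors deposited 1 table a library, with FPKM to 2 decimals. FastQC 0.11.2, Bowtie and the build mm10 are named, per the submitters' processing notes. Quantifier, annotation and strandedness: not given in the sources used here. Reads of overlapping or antisense genes may therefore be mixed. FPKM of short genes did not come in steps of whole fragments, so the depth is unknown. Symbols were looked up in GENCODE mouse release 21; of 55401 gene IDs, 51957 had identical coordinates there and 260 had no symbol. The members and lists were chosen with earlier results of these data known.

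A gene was tested if 3 or more libraries had 1 FPKM or more (13590 genes, with all 10 members). The design set a count test first and limma for normalised values. As the files hold FPKM, limma 3.58.1 (limma-trend, R 4.3.3) was used on log2(FPKM + 1), a scale that understates changes of low genes, with Benjamini-Hochberg adjustment over all genes kept at 0.05. The script was tested on simulated data. Ratios were compared by an exact permutation test. Lists were described by counts and medians, without a test. The genes named were the 10 members, the 2 most abundant and the 2 with the largest difference of each list of related genes, and the 5 nearest patterns. Arc, Nr4a1, Elk4, Map2k4, Maff, Mafg, Csrnp1 and Mmp9 were named after their values were seen, and marker genes for the check of cell type. Alternatives were another pseudocount (0.1), other filters, 3 scalings, the replicate number as a block and each library left out.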

Additional observations from a re-analysis of the deposited data

How the results depend on the processing

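Under 13 alternatives the median difference of the 10 genes stayed positive, at 0.25 to 0.48, and 9 or 10 of them had a positive difference. No member was called under any; over the 130 differences recomputed, the limma adjusted p lay between 0.561 and 0.998. Jund alone changed sign, to -0.10 without atorvastatin library 1, -0.01 without atorvastatin library 3, -0.07 without vehicle library 1 and -0.02 without vehicle library 3, and its highest value with a library left out was 0.13. Leaving out single libraries, limma called between 0 and 2 genes in all, where the full data gave 0 with 974 at an unadjusted p under 0.05; the cause was not tested. The members at an unadjusted p under 0.05, 2 in the full data, numbered 0 without atorvastatin library 1 or 3 or vehicle library 2, 1 without vehicle library 1 or with the filter on all 6 libraries, 4 without atorvastatin library 2 or vehicle library 3, 6 with the trend on gene length removed and 8 with equal sums without immunoglobulin genes. They numbered 3 with median-of-ratios scaling. The genes at that level over the whole table numbered 1761 with no filter on low values, 535 without atorvastatin library 1 and 459 without atorvastatin library 3. They numbered 992 without atorvastatin library 2, and 734, 1138 and 1125 without vehicle library 1, 2 and 3. With the length trend removed there were 1049, with median-of-ratios scaling 1064, and with equal sums without immunoglobulin genes 1142. The filter on all 6 libraries gave 896. Deviations from the group means correlated at -0.11, 0.14 and -0.02 between same-numbered libraries, and at -0.16 to 0.19 between the other pairs. With 3 libraries a group, these values cannot tell whether same-numbered libraries were paired. With the replicate block 0 genes were called, 852 had an unadjusted p under 0.05, and so had 3 members. Fragment numbers are unknown, so the counting error of low genes cannot be stated, and 3 libraries a group limit every interval.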

Other observations

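Maff, a small Maf factor among the 13 other bZIP genes and chosen here after its values were seen, split the libraries across the groups, with 25.9, 23.3 and 107 FPKM with atorvastatin and 88.1, 66.2 and 25.5 FPKM with vehicle. Its close relative Mafg had 13.5, 13.2 and 14.1 FPKM with atorvastatin and 12.2, 12.9 and 11.9 FPKM with vehicle, and Mafk did not show the split either. Csrnp1, an immediate early gene also chosen after its values were seen, had 117, 81.5 and 107 FPKM with atorvastatin and 145, 68.0 and 86.0 FPKM with vehicle, so its highest library was vehicle library 1, the library in which Fos, Jun and Egr1 were lowest.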
